A study of Caenorhabditis elegans with 2 samples.

Results

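LIN-1 binding was examined at the genes of the other ETS transcription factors of Caenorhabditis elegans, the family to which LIN-1 itself belongs. The members were taken by name from the Ensembl annotation of the WBcel235 assembly: every nuclear protein-coding gene called ets- and a number, and ast-1. This gave 8 genes (ets-4 to ets-10 and ast-1) of 19973 nuclear protein-coding genes. A peak was given to a gene when its summit, the position of highest signal, lay between 5 kb upstream of the gene start and the gene end. Chromatin immunoprecipitation followed by sequencing was carried out on whole L4 larvae, 48 hours old, of strain RW12212, in which CRISPR had inserted a TY1, EGFP and 3xFLAG tag into lin-1 on chromosome IV (allele st12212). Both replicates, biological ones per the labels, carried this allele and had been synchronised as bleached, starved L1 larvae, and the 1 group had no untagged group beside it here. The label text describes an antibody to GFP while the antibody entry names lin-1, and which was used is not settled by these sources. The labels point to a possible control, which was not analysed here, and the part that signal from other sources has in the peaks below was not tested.

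ETS factors bind DNA through a conserved winged helix-turn-helix domain, which contacts a GGA core in the DNA, most often read as GGAA or GGAT. LIN-1 acts downstream of Ras and the ERK kinase MPK-1, mainly as a repressor of vulval fate until it is phosphorylated. Among the other members, ETS-5 specifies the gas-sensing BAG neurons, AST-1 acts in axon guidance and switches on dopamine genes in the dopaminergic neurons, and ETS-4 is known for roles in lifespan and in the regrowth of cut axons.

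The deposited lists hold peaks and no read totals, so read depth is unknown. Peaks were selected by the irreproducible discovery rate (IDR), which is small for a peak ranked consistently high in both of the lists compared. The conservative list compares replicate 1 with replicate 2 and held 2267 peaks, 2243 of them nuclear, each with an IDR of 0.01 or less. The ranked list behind it has 2338 peaks at that IDR, 71 more than were kept, and the step that left them out is not stated. In the windows of the ETS genes all 5 ranked peaks at that IDR were kept. The second list of the whole series, called the series list here, held 2329, and the replicates' own lists held 1079 and 1348 peaks. Signal is the authors' value for a peak, and its scale is not stated. The median over the nuclear conservative peaks was 73.8, with quartiles of 60.6 and 96.1.

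Of the 8 genes, 3 had a conservative summit: ets-4 and ets-5 with 2 summits each, and ets-10 with 1. The other members, ets-6, ets-7, ets-8, ets-9 and ast-1, had none. The share of 37.5% (3 of 8, exact 95% binomial interval 8.52 to 75.5%) stood beside 14.9% of all nuclear protein-coding genes with the same window. The interval covers counting error over genes only, and genes are not replicates. The members with 2 summits were 2 of 8, beside 3.45% of all genes. All 3 genes with a summit lie on X, which also holds ets-9. Thus 3 of 4 members on X had a summit, beside 18.4% of X genes. On the autosomes 0 of 4 did, beside 14.3% of autosomal genes. For the autosomal members the exact 95% interval reaches up to 60.2%. The members include 4 X genes of 8, while 13.7% of all nuclear protein-coding genes are on X.

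The sequences from 50 bp before to 50 bp after the summits show what lies under these peaks. They are given on the plus strand of WBcel235, from its RefSeq sequence, and capitals mark GGAA on either strand, except at the tRNA gene, where they mark the B box of tRNA promoters (either strand), an element bound by the polymerase III factor TFIIIC.
ets-4, upstream, chrX:6518686-6518786: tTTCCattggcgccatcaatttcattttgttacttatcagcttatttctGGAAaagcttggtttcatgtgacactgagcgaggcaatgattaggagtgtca
ets-4, intron, chrX:6520862-6520962: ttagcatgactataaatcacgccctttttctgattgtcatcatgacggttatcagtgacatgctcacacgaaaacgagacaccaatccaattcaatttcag
ets-5, tRNA gene upstream, chrX:5085610-5085710: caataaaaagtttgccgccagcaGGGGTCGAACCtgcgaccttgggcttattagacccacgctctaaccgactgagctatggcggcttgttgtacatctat
ets-10, coding exon, chrX:4284580-4284680: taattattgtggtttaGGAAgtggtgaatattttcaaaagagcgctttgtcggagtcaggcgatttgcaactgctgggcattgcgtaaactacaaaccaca
The window of the other ets-5 peak lies over an untranslated region and is not printed.

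At ets-4 (X, 6518883 to 6522667, plus strand) both summits were nearer to the start of ets-4 than to that of any other protein-coding gene, and neither lay in the window of another gene. The upstream peak (6518588 to 6518883) had its summit in intergenic sequence 147 bp before the gene start, which made ets-4 the only member with a summit in the promoter window of 1000 bp upstream to 200 bp downstream. That is 1 of 8 members, beside 5.25% of all genes. Replicate 1 gave it a signal of 38.0 and replicate 2 one of 38.6, and the list as a whole 71.8 (IDR 0.000587). The replicate signals differed by 1.02-fold, the smallest difference among the 5 peaks. GGAA occurred in its window at the summit, with the first base 1 bp before it, and again, on the other strand, 49 bp before it.

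The second ets-4 peak (6520764 to 6521059) lay in an intron, 2029 bp downstream of the start, where replicate 1 gave 27.5, replicate 2 gave 37.7 and the combined signal was 60.2 (IDR 0.00252). It is intron 7 or intron 4 depending on the transcript, and its window held no GGAA. Neither ets-4 peak was in a replicate's own thresholded list. In the ranked list of replicate 1 they had IDR values of 0.537 and 0.716, and in that of replicate 2 of 0.0767 and 0.0195. Both were listed only where both replicates enter, in the conservative and the series list.

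Just outside the ets-4 window, 261 bp beyond the gene end, a further conservative summit lay in coding exon 9 of ceh-60, which encodes a homeobox cofactor of the PBC class (6522780 to 6523075, signal 73.6, with 37.3 and 32.0 in replicates 1 and 2). Just outside the IDR threshold, a ranked peak 1311 bp upstream of ets-4 had an IDR of 0.0257 and reached 54.2, from 19.6 in replicate 1 and 33.6 in replicate 2. Among the conservative peaks in the members' windows, the one nearest the threshold was that of ets-10, with an IDR of 0.0061. Counting ranked peaks of any IDR, ets-4 had the most of the 8 genes, 14 in a window of 8.79 kb or 15.9 per 10 kb, of which 12 had a pair of replicate signals not shared with a stronger peak. Over the windows of all protein-coding genes together the density was 4.98 ranked peaks per 10 kb.

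**Figure D1:**
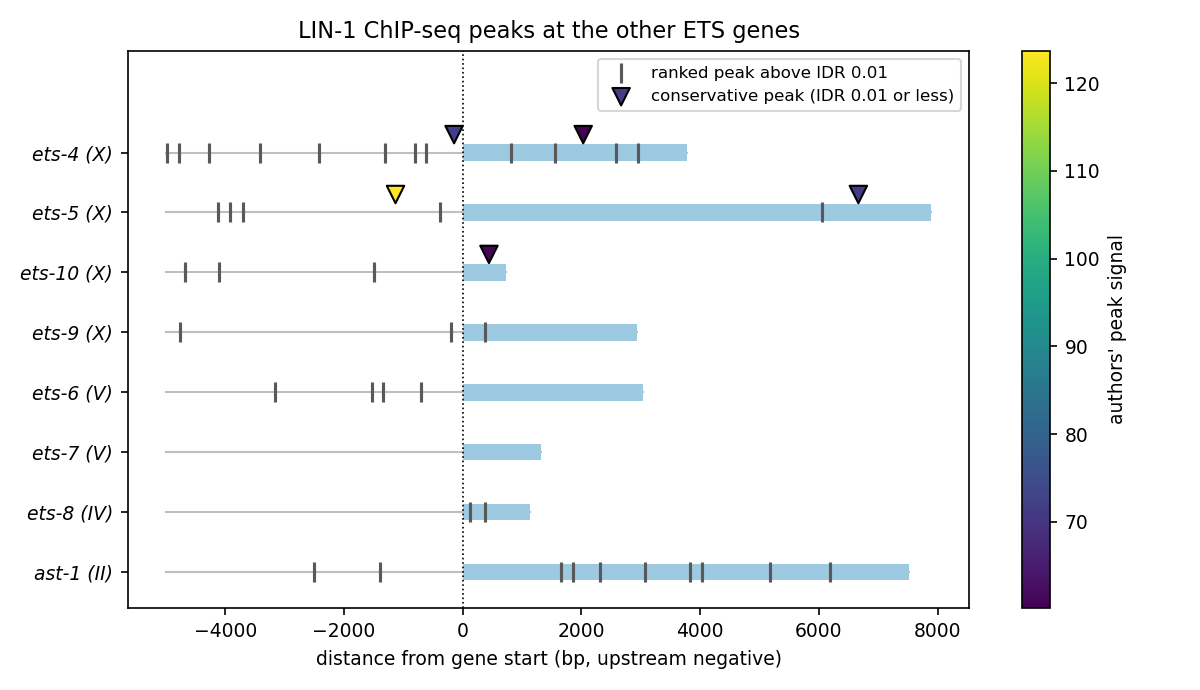
Peaks of the conservative comparison along the 8 ETS genes, drawn as distance from the gene start in bp, with the gene body as a blue bar and the chromosome in brackets. Triangles are conservative peaks coloured by the authors' signal, and ticks are ranked peaks that missed the IDR threshold of 0.01. The 5 conservative peaks lie at ets-4, ets-5 and ets-10, and no ranked peak lies in the ets-7 window.

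At ets-5 (X, 5076635 to 5084526, minus strand) both peaks lay on other genes, the weaker one also within an intron of ets-5. The stronger one (5085512 to 5085807) reached 124, from 55.3 in replicate 1 and 70.6 in replicate 2. This was the highest of the 5, ranked 255 of 2243 nuclear peaks, and had the smallest IDR the list gives (1e-05). It was also the only one of the 5 in both replicates' own lists. Across all nuclear conservative peaks, 30.2% were in both own lists and 35.3% in neither.

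The summit of this peak, 1134 bp upstream of ets-5, lay within a tRNA gene (WBGene00022958, 5085622 to 5085695) and within C42D8.14, a non-coding RNA gene on the opposite strand. The B box match in capitals above lies within this tRNA gene. Of the nuclear conservative summits, 259 of 2243 (11.5%) lay within 200 bp of a tRNA gene, with a median signal of 79.8, and the ets-5 peak was number 25 among them by signal. B box matches were found in 30.1% of those 259 windows and in 0.353% of the other 1984. No GGAA was found in the ets-5 window. The replicate summits lay 92 bp apart, against a median of 28 bp over all nuclear conservative peaks. That of replicate 1, 1075 bp upstream of ets-5, lay just outside the tRNA gene. That of replicate 2, 1167 bp upstream, lay within it.

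The other ets-5 peak (5077712 to 5078007, IDR 0.000679) reached 71.5, from 35.0 in replicate 1 and 40.1 in replicate 2. Its summit lay 6666 bp downstream of the start of ets-5, in intron 5. The same position is in the 5′ UTR of cal-5, a calmodulin-related gene on the same strand, 0.101 kb downstream of the cal-5 start, which is the nearest gene start. It was in replicate 1's own list (IDR 0.00919) and just missed that of replicate 2 (IDR 0.0118). The upstream peak also falls in the window of pnk-4, a pantothenate kinase gene.

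The ets-10 peak lay inside the gene, which is short (X, 4284189 to 4284922, plus strand, 734 bp). Its summit was in coding exon 4, 441 bp downstream of the start (4284482 to 4284777), and its signal was 61.1. It was the least even of the 5, with 23.2 in replicate 1 and 40.3 in replicate 2, a difference of 1.74-fold against a median of 1.26-fold over all nuclear conservative peaks. It was in the own list of replicate 2 (IDR 0.00395) and not in that of replicate 1 (IDR 0.239), although both replicates put the summit at the same base. The nearest gene start was that of ets-10, and the window of cka-2, a choline kinase gene, holds the summit too. The window held 1 GGAA, whose first base lay 34 bp before the summit.

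Taking the 5 peaks as a set, signals ran from 60.2 to 124, and 4 of the 5 lay below the nuclear median of 73.8. Replicate 2 gave the higher signal at all 5, as it did at 65.1% of nuclear conservative peaks. None of the 5 repeated the replicate signals of a stronger peak.

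**Figure D2:**
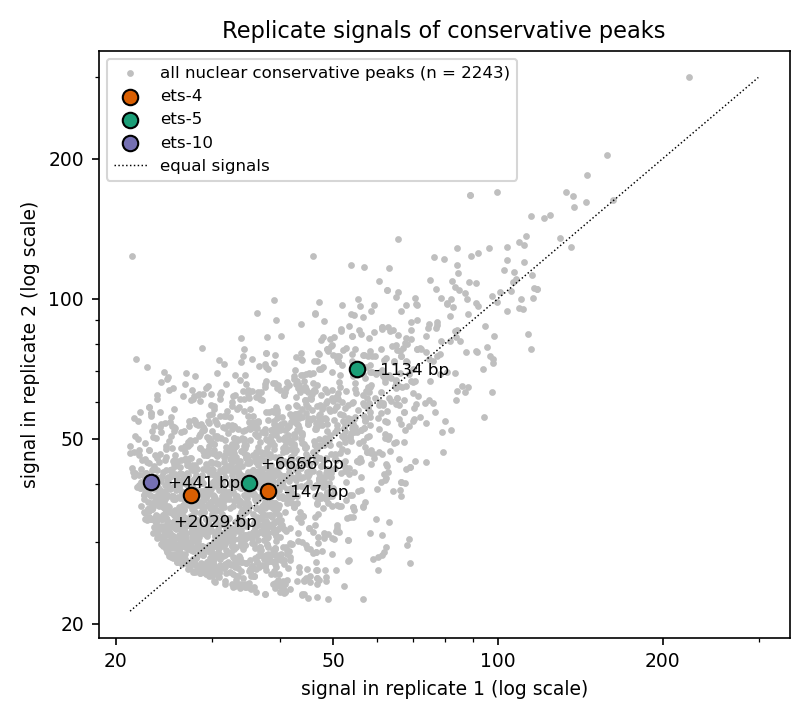
Signal in replicate 1 against replicate 2, both on log scales, for the 2243 nuclear conservative peaks (grey) and the 5 peaks of ets-4, ets-5 and ets-10 (coloured, labelled with the distance of the summit from the gene start). The ets-5 peak over the tRNA gene, at 55.3 and 70.6, stands above the other 4, which lie between 23.2 and 38.0 in replicate 1.

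The GGAA form of the ETS core was looked for in the same windows. GGAT was not counted, so a window without GGAA may still hold the core. Of the 5, 2 held GGAA on either strand (40%, exact 95% binomial interval 5.27 to 85.3%). The interval covers counting error over peaks only, and the 5 peaks, from 3 genes, are not replicates. GGAA was found in 58.2% of windows at nuclear conservative summits. In windows 500 bp to each side of them the share was 63.2%, and in all tiles of that length of the nuclear genome 64.4%. The longer CCGGAA was in none of the 5, in 3.39% of nuclear summit windows and in 4.27% of tiles. A match is a description of the letters and not a binding site, and its absence from so short a window says nothing about the factor. The 5 windows had little else in common: no word of 6 letters was present in more than 3 of them, and the 2 words that reached 3, ACTGAG and CAGCAG, were in 5.71% and 6.51% of all nuclear summit windows.

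Of the 5 genes without a conservative summit, 4 had ranked peaks that missed the threshold widely. ets-9 (X, 4279703 to 4282633) is the neighbour of ets-10, 1.56 kb away on the same strand. Its best ranked peak lay in intergenic sequence 193 bp upstream of its start, where replicate 1 gave 14.3 and replicate 2 gave 14.1 (signal 30.3, IDR 0.378). This peak and another 382 bp into the gene (signal 27.3) also fell in the window of ets-10. The nearest conservative summit to the ets-9 window was the ets-10 one, 2.00 kb beyond its end.

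At ets-6 (V, 7577512 to 7580546) the best ranked peak had the highest signal among these genes, 41.2, and the largest gap between replicates, with 27.4 and 12.9 (IDR 0.567). Its summit, 703 bp upstream, lay in a coding exon of ints-9, a gene of the Integrator complex. At ast-1 (II, 4127837 to 4135359) there were 10 ranked peaks, 8 of them inside the gene. The best by rank lay in coding exon 6 with a signal of 24.5 (IDR 0.437), and the strongest lay 4031 bp into the gene with 30.3, from 22.1 in replicate 1 and 11.4 in replicate 2. At ets-8 (IV, 1159361 to 1160486) both ranked peaks shared 1 pair of replicate signals, 13.5 and 9.24, at an IDR of 0.819.

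The last of these genes, ets-7 (V, 7557470 to 7558793), had no ranked peak in its window in any of the 4 lists. It was the only member without one in the conservative comparison, where 7 of 8 members and 78.9% of all genes had a ranked peak of any IDR. The nearest conservative summit lay 10042 bp from its start, and the best ranked peaks of the conservative comparison at the other 4 genes had IDR values between 0.378 and 0.819. With the threshold relaxed to an IDR of 0.05 in the ranked list, the members with a summit were still ets-4, ets-5 and ets-10, while the share of all genes rose to 21.7%.

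**Figure D3:**
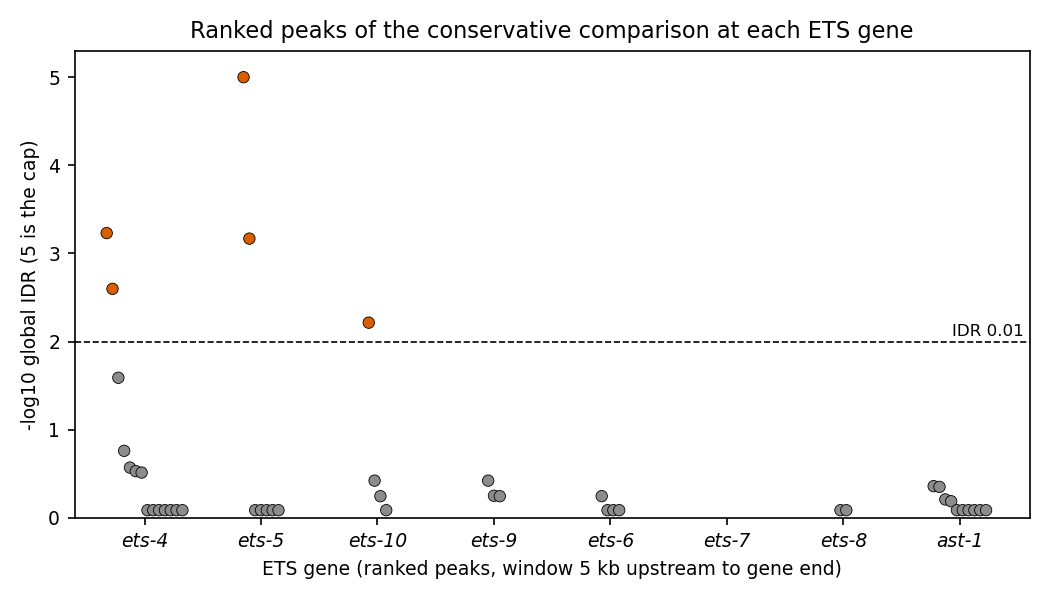
Ranked peaks of the conservative comparison in the window of each ETS gene, as −log10 of the global IDR, where higher is better and 5 is the largest value given. Orange points passed the IDR threshold of 0.01 (dashed line) and grey points did not. The ets-4 peak with an IDR of 0.0257 is the nearest below the line, and ets-7 has no point.

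Every window holds the gene body, so widening it could raise the count of members with a summit but not lower it. The count was 3 at each reach. It was 3 for the gene body alone, beside 3.38% of all genes, and 3 with 1 kb, 2 kb and 10 kb upstream, beside 7.97%, 10.1% and 22.0%. In the gene body the peaks were the intronic one of ets-4, the ets-5 one at the start of cal-5, and the exonic one of ets-10. The members' windows at 5 kb were longer than usual, with a median of 7.98 kb against 7.03 kb for all genes. Those of ets-5 and ast-1, at 12.9 and 12.5 kb, were longer than those of 92.2% and 91.5% of genes, and that of ets-10, at 5.73 kb, was longer than 11.1%. Per length of window, members had 5 summits in 64.9 kb, or 7.70 per 100 kb, beside 2.27 per 100 kb over the windows of all protein-coding genes.

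**Figure D4:**
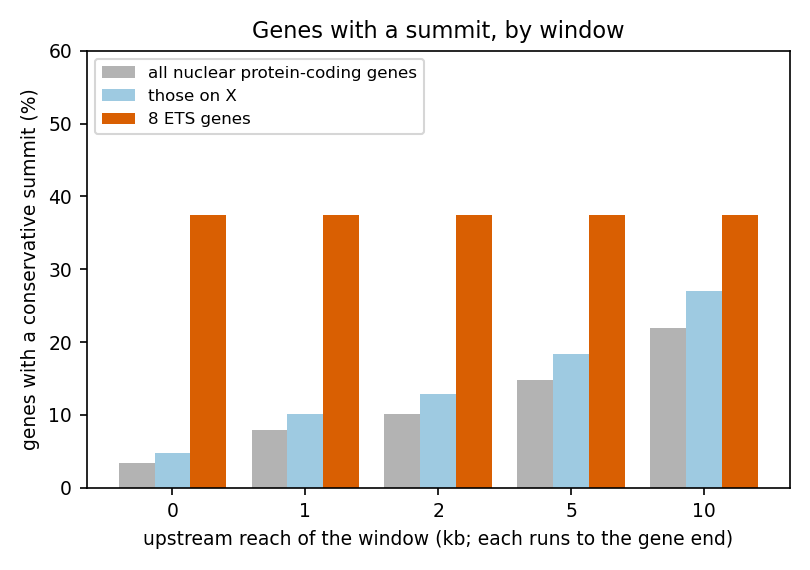
Share of genes with a conservative summit, in percent, as the window grows from the gene body alone (0 kb) to 10 kb upstream, for all 19973 nuclear protein-coding genes, for those on X and for the 8 ETS genes. The ETS share stays at 37.5% (3 genes) while that of all genes goes from 3.38 to 22.0%.

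The calls depended on the list. In the series list the same 3 members had the same 5 summits, beside 15.1% of all genes. In replicate 1's own list only ets-5 had a summit (1 of 8, beside 7.99% of genes), and in replicate 2's own list ets-5 and ets-10 did (2 of 8, beside 9.95%). No member had a promoter summit in either own list.

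For comparison, lin-1 itself, which the choice of members leaves out, had 3 conservative summits in the same window, 1 of which repeats another. The strongest, in intron 2, reached 91.4, from 27.9 in replicate 1 and 68.0 in replicate 2. The second reached 81.3, and the third, at 4.94 far below the nuclear median of 73.8, carries the same pair of replicate signals as the second.

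Genes known to act with or downstream of the members were looked at with the same window and list. Of 19 such genes, 6 had a summit (31.6%, beside the 14.9% of all genes). Among 6 genes of axon regrowth around ETS-4 there were 3. cebp-1, which encodes a bZIP factor that acts with ETS-4, had an intergenic summit 732 bp upstream of its start that reached 135, from 52.1 in replicate 1 and 77.7 in replicate 2. dlk-1, a kinase gene needed for regrowth, had an intronic summit 289 bp downstream of its start with a signal of 106, and a second with a signal of 10.1. kgb-1, which encodes a JNK-type kinase, had a summit 497 bp upstream with a signal of 51.5, nearer to the start of T07A9.12. svh-1, svh-2 and pmk-3 had none.

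Of 7 dopamine genes and co-regulators linked to AST-1, cat-1 and cat-2 had a summit and dat-1, bas-1, cat-4, ceh-43 and ceh-20 did not. The strongest of 2 peaks at cat-1, the vesicular monoamine transporter gene, had a signal of 147 and lay over a tRNA gene within an intron. The other cat-1 peak had a signal of 80.7. The peak at cat-2, which encodes tyrosine hydroxylase, had a signal of 68.5, in an intron of scc-2 2474 bp upstream. Of 6 BAG neuron genes linked to ETS-5, only gcy-33, a soluble guanylate cyclase gene, had a summit. It had 2, the strongest (signal 175) over a tRNA gene 384 bp upstream and the other with a signal of 61.2. gcy-9, gcy-31, flp-17, flp-13 and egl-13 had none. The strongest peaks at ets-5, cat-1 and gcy-33 were thus alike in lying on tRNA genes, and the part of such peaks in the counts above was not tested beyond leaving them out for the ETS genes: without summits within 200 bp of a tRNA gene, the same 3 members had a summit, beside 13.5% of all genes, with 4 summits in all and a highest signal of 71.8.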

How the data were processed

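LIN-1 ChIP-seq peaks of 1 group with 2 biological replicates were analysed. Peak lists on ce11, per the labels, came from the authors as 4 ranked and 4 thresholded lists. Each peak has a deposited signal value whose scale is not stated, and the authors give in the ranked lists the global IDR as −log10. The sources used here name no peak caller or aligner. Every thresholded peak was checked to be a ranked peak with an IDR of 0.01 or less, but not every such ranked peak is in a thresholded list. The lists of the whole series derive from alignments of both replicates and from further files, per the file headers that accompany them. Signals in the conservative comparison carry no replicate name: they were taken as replicate 1 or 2 because 61.6% and 62.8% equal a signal in that replicate's own ranked list, against 1.70% and 2.08% for the other replicate's. At all 5 conservative peaks of the members both values equal those in the own ranked lists, while at weaker peaks some have no such match. The 2 corresponding columns of the other ranked list of the series match neither replicate and were not used.

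Positions were set against WBcel235, the same assembly as ce11, with Ensembl release 115, and are 1-based. Summits, windows and motifs were counted with Python 3.11.15 and pandas 2.3.3, and the counting was tested on simulated peaks. A replicate's signal is the one the conservative ranked list gives for it. A peak was in a replicate's own list when it overlapped a peak there by 1 bp or more. No test was run: with 1 group there is no contrast. All members are named, with the nearest gene start and the genes that hold each summit, and 3 lists of associated genes. Members and lists were chosen with earlier results of these data known. Protein sequences were not analysed here.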

Additional observations from a re-analysis of the deposited data

How the results depend on the processing

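The count of 3 ETS genes with a summit was within 1.5 times under 13 of 14 alternatives: each kept at least 2 genes, and the exception was replicate 1's own list. With each replicate left out in turn, the other's own list gave 1 to 2 genes, 2 summits and a highest signal of 55.3 to 70.6. Each own list gave 4 of 19 associated genes, beside 7.99% of all genes in replicate 1's list and 9.95% in replicate 2's. Members with a promoter summit were 0 in each, beside 2.65% and 3.43% of all genes. GGAA was in 1 of 2 windows (50%) in each. Own lists hold fewer peaks, with lower median signals. At an IDR of 0.001 there were 3 summits. At 0.05 the associated genes with a summit were 10 of 19, beside 21.7% of all genes in place of 14.9%. In gene bodies alone there were 3 summits, with a highest signal of 71.5. The associated genes with a summit in the gene body were 2 of 19, beside 3.38% of all genes. With 1 kb upstream, and without summits at tRNA genes (an alternative chosen after seeing the data, as was leaving out summits in another gene's promoter), the highest signal was 71.8. Promoters of 2000 bp upstream to 500 bp downstream held summits of 3 members in place of 1, beside 7.72% of all genes in place of 5.25%. GGAA was in 100% of windows reaching 100 bp to each side, beside 82.9% of all nuclear summit windows and 86.5% of genome tiles of that length. CCGGAA was in 0% of windows reaching 50 bp, beside 3.39% of nuclear summit windows. In those reaching 100 bp it was in 1 of 5, beside 7.13% of nuclear summit windows and 7.89% of tiles. All 5 peaks overlapped a ranked peak of both replicates at any rank. Both signals of each equal those in the own ranked lists, so this overlap was given in advance and is no added support. In both thresholded lists there was 1 of 5, beside 30.2% of nuclear conservative peaks. No paired analysis was possible because there is 1 group. Read depth is unknown, so a gene without a peak may be bound below detection.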
